A study of Mus musculus with 9 samples.

Results

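The enzymes of de novo purine synthesis build the purine ring on ribose, from phosphoribosyl pyrophosphate (PRPP) to inosine monophosphate (IMP) and on to adenosine monophosphate (AMP). Transcripts of 10 genes that encode them were taken by name out of the 32285 gene identifiers of the count tables: Prps1, Prps2, Ppat, Gart, Pfas, Paics, Adsl, Atic, Adss and Adssl1. They were followed in adipocyte precursors of the mouse, in 3 libraries per treatment. The pathway did not move as 1 block. Of all genes tested, 35.9% were called higher and 35.1% lower with MIZ than with vehicle. The median absolute log2 fold change was 0.41 over the 10 genes and 0.65 over all genes. In MIZ-treated cells Pfas, Paics and Adsl were lower than in vehicle-treated cells while Prps1, Prps2, Gart and Atic were higher, and the most marked changes were in the PRPP synthetase isoform Prps2, which was 3.28-fold higher with MIZ than with vehicle and 4.92-fold lower with vehicle than in undifferentiated cells.

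The cells were primary stromal vascular fraction (SVF) cells, a mixed preparation that holds the preadipocytes of fat, from the subcutaneous white fat of wild-type mice aged 4 to 6 days. MIZ libraries came from cells differentiated toward adipocytes for 6 days with mizoribine (MIZ, 25 µM by the legend of the study), a drug that blocks IMP dehydrogenase, and Vehicle libraries from cells differentiated for 6 days with the solvent DMSO. Undifferentiated libraries came from cells that received no differentiation medium. Differentiated cells had received insulin, dexamethasone and IBMX and then insulin, troglitazone, rosiglitazone and T3, so Vehicle and Undifferentiated cells differ in all of these agents as well as in the state of the cells. Each group had 3 libraries that are described as biological replicates. By the study's methods SVF cells of each animal were plated on their own, but which library came from which animal is not given for the sequenced samples.

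Purine synthesis starts from ribose 5-phosphate, which PRPP synthetase (Prps1 or Prps2) converts to PRPP. The amidophosphoribosyltransferase Ppat then commits PRPP to the pathway and is held back by the purine nucleotides at its end. Gart, Pfas, Paics, Adsl and Atic complete the ring as IMP, with glycine, glutamine, aspartate, carbon dioxide and formyl-tetrahydrofolate as donors. IMP leads to AMP through adenylosuccinate synthase (Adss, or its muscle isoform Adssl1) and again Adsl, and to guanine nucleotides through IMP dehydrogenase (Impdh1 or Impdh2), the enzyme that MIZ blocks. The pathway is known for its activity in proliferating cells and as a target of MYC.

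Levels are given in CPM, the read count of a gene relative to the size of its library, after TMM scaling, which corrects that size for composition. Libraries held between 28760721 and 55288455 counts, and the 10 genes took between 0.0393% and 0.0436% of them. Each of the 10 had enough counts to be tested, with the lowest sum over a group of 3 libraries at 374 (Adssl1 in MIZ). Differences were tested with edgeR's quasi-likelihood test over 17173 genes in all 9 libraries, with 0.05 as the threshold of the Benjamini-Hochberg adjusted p for a call. The adjusted p-values weigh a difference against the spread between libraries of the same group, which edgeR estimates with help from all genes tested. Errors after ± are SD over 3 libraries, and fold changes are on the log2 scale with edgeR's standard error (SE).

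Genes that mark the cell types were read from the same libraries. Summed over 10 adipocyte markers, the level was 2282 to 2622 CPM in MIZ, 20510 to 21730 CPM in Vehicle and 715 to 806 CPM in Undifferentiated libraries, and the marker Cidec was at 0 in Undifferentiated cells, as was Lep in MIZ and Undifferentiated cells. The sum over 8 preadipocyte markers was 5728 to 7543 CPM in MIZ, 3269 to 4115 CPM in Vehicle and 14310 to 15550 CPM in Undifferentiated libraries. Most of it was the collagen gene Col1a1 (5697 ± 912 CPM in MIZ, 3395 ± 383 CPM in Vehicle and 13860 ± 609 CPM in Undifferentiated cells), and between MIZ and Vehicle 4 of the 8 were called higher, 1 (Cd34) lower and 3 not. Cultures also held 6619 to 8693 CPM of 5 smooth muscle markers in MIZ, against 78.5 to 111.5 CPM in Vehicle and 722.6 to 859 CPM in Undifferentiated libraries. The sum over 8 macrophage and leukocyte markers was 898 to 1237 CPM in MIZ, 460 to 854.5 CPM in Vehicle and 3613 to 3715 CPM in Undifferentiated libraries, with Cd3e at 0 in each group. Of the 6 that were tested, Lyz2 and Adgre1 were higher with MIZ than with vehicle, while Ptprc, Cd68, Csf1r and Itgam were not called (log2 fold changes -0.31 to -0.13). Over 5 endothelial markers it was 1.30 to 1.55 CPM in MIZ, 1.73 to 2.00 CPM in Vehicle and 6.64 to 9.56 CPM in Undifferentiated libraries, over 3 mesothelial markers at most 0.861 CPM, and 0 CPM over 4 erythroid markers in MIZ and Vehicle libraries. Over 3 Schwann cell markers it was 22.6 to 36.03 CPM in MIZ, 8.96 to 10.6 CPM in Vehicle and 13.6 to 17.9 CPM in Undifferentiated libraries. The part of these differences between cultures in the values below was not tested.

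The genes lie on 7 chromosomes of the GRCm38 mouse genome (GENCODE M21 models). Prps1 (ENSMUSG00000031432, chrX:140456613-140476140, plus strand) and Prps2 (ENSMUSG00000025742, chrX:167346322-167382749, minus strand) are both on the X chromosome. Ppat (ENSMUSG00000029246, chr5:76913249-76951578, minus strand) and Paics (ENSMUSG00000029247, chr5:76951307-76967509, plus strand) stand head to head and share 272 exonic bases on opposite strands, 6.15% of the exonic bases of Ppat and 8.67% of those of Paics. Gart (ENSMUSG00000022962, chr16:91621186-91646952, minus strand) shares 1014 exonic bases, 19.7% of its own, with the antisense gene Gm15964. The sources used here do not give the strand setting of the counting, so reads from such shared stretches cannot be told apart. Pfas (ENSMUSG00000020899, chr11:68985697-69008460, minus strand), Adsl (ENSMUSG00000022407, chr15:80948490-80970946, plus strand) and Adssl1 (ENSMUSG00000011148, chr12:112620045-112641360, plus strand) are on chromosomes of their own. Atic (ENSMUSG00000026192, chr1:71557150-71579631, plus strand) and Adss (ENSMUSG00000015961, chr1:177762962-177796511, minus strand) are both on chromosome 1. The nearest copy of Prps1 among counted genes is Prps1l3, a Prps1-like gene whose transcript matches that of Prps1 at 92.8% of 1500 aligned bases, and how the counting split reads between them is not known. The annotation also holds 8 pseudogene copies of Paics and 2 of Atic, which were not analysed here.

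The isoenzyme pairs are those whose members moved apart in the values below, so the 250 bases before the RefSeq start of each of these 4 genes (GRCm38.p6) are shown, 5′ to 3′ on the strand of the gene. Capitals mark the letters searched for, on either strand. They are GGGCGG, which is the GC box that SP1 binds, CCAAT, which is the box of NF-Y, and CACGTG, which is the E box of MYC and MAX. The windows are chrX:140456353-140456602 for Prps1, chrX:167382750-167382999 for Prps2, chr1:177796510-177796759 for Adss and chr12:112619797-112620046 for Adssl1.
Prps1: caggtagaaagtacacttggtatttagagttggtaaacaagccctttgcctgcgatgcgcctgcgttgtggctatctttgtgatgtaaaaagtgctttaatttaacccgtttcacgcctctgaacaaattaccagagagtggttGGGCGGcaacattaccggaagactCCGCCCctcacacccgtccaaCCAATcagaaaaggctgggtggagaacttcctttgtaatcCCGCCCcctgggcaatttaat
Prps2: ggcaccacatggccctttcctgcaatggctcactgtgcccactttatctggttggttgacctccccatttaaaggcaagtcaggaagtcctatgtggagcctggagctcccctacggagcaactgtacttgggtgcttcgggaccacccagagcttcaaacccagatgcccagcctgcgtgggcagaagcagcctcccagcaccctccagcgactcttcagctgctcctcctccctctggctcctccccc
Adss: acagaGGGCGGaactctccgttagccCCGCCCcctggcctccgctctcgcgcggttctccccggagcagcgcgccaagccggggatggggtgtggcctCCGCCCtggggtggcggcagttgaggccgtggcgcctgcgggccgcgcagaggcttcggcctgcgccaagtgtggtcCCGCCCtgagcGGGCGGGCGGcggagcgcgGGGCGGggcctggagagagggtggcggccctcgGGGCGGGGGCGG
Adssl1: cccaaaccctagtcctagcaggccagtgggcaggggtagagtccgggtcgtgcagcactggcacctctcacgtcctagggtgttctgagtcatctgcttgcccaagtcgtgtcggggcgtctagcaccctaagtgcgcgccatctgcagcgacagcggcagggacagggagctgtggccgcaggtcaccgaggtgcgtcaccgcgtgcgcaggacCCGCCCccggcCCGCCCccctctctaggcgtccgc
Prps2, whose level changed the most, held none of these motifs in its window, where Prps1 held 1 CCAAT and 3 GGGCGG. Adss held 9 GGGCGG, 2 of which overlap each other by 2 bases, and Adssl1 held 2.

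Of the 10 genes, 9 had a promoter entry in the RefSeq table (Pfas had none), and the 250 bases before each start were searched on both strands for these motifs and for TGACGTCA, the letters that CREB and ATF factors bind. GGGCGG was in 8 of the 9 windows, all but that of Prps2, and in 32.7% of 32851 such windows of 250 bases over all genes. CCAAT was in 4 of 9 (Prps1, Gart, Paics and Atic) and in 33.8% of all windows. CACGTG was in 2 of 9 and in 6.02% of all windows, and TGACGTCA in 0 of 9 and in 1.55%. Since MYC is known for its action on this pathway, the 30 bases around the CACGTG of Paics (chr5:76951087-76951116, motif from -203 to -198 from the start) and of Atic (chr1:71557126-71557155, motif from -7 to -2) are shown, with that motif alone in capitals.
Paics: cgcctcggaaagCACGTGgagggacctgct
Atic: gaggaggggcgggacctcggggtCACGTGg
The same E box stands before Paics, which was lower with MIZ than with vehicle, and before Atic, which was higher. A match of letters is a description of the sequence and does not show that a factor binds there.

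PRPP synthetase, the entry of the pathway, changed through both of its isoforms. Prps2 was at 32.6, 32.6 and 29.0 CPM in MIZ libraries, at 7.99, 9.81 and 10.6 CPM in Vehicle libraries and at 44.1, 50.9 and 46.2 CPM in Undifferentiated libraries. The 3 groups did not overlap, with Undifferentiated highest, MIZ between and Vehicle lowest. In bulk RNA, fewer cells that express a gene and less of its RNA per cell cannot be told apart, here or in any later value. The mean was 31.4 ± 2.08 CPM in MIZ and 9.47 ± 1.35 CPM in Vehicle, a log2 fold change of 1.71 (SE 0.0996, edgeR adjusted p = 4.63e-08). Of all genes tested, 19.1% changed by more than Prps2 did in this comparison. Vehicle cells were lower than Undifferentiated cells (47.0 ± 3.50 CPM) by a log2 fold change of -2.30 (SE 0.0992, edgeR adjusted p = 2.73e-09), and MIZ cells were lower than Undifferentiated cells by one of -0.58 (SE 0.0909, edgeR adjusted p = 0.000183). Prps2 kept its call in every one of these comparisons under each of the 19 alternative settings, with log2 fold changes between 1.61 and 1.85 for MIZ against Vehicle.

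Prps1 ran in the other direction on differentiation. It was at 14.6, 15.3 and 16.7 CPM in MIZ libraries, at 13.5, 12.8 and 11.9 CPM in Vehicle libraries and at 6.91, 7.55 and 6.89 CPM in Undifferentiated libraries. Again no library of 1 group reached into another, but here MIZ was highest and Undifferentiated lowest. The log2 fold change was 0.29 (SE 0.08, edgeR adjusted p = 0.00748) between MIZ (15.5 ± 1.07 CPM) and Vehicle (12.7 ± 0.791 CPM). It was 0.84 (SE 0.0825, edgeR adjusted p = 2.95e-06) between Vehicle and Undifferentiated (7.12 ± 0.375 CPM), and 1.13 (SE 0.0819) between MIZ and Undifferentiated. The copy Prps1l3 was at 20.2 ± 0.884 CPM in MIZ, 19.4 ± 0.832 CPM in Vehicle and 12.4 ± 0.486 CPM in Undifferentiated cells, and its difference between MIZ and Vehicle did not pass (0.06, edgeR adjusted p = 0.421). With the counts of Prps1l3 added to those of Prps1, which was tried only once the values were known, the value was 0.15 for MIZ against Vehicle, 0.72 for Vehicle against Undifferentiated and 0.87 for MIZ against Undifferentiated, smaller in each case and still past the threshold. Prpsap1 and Prpsap2, which encode proteins that bind PRPP synthetase, did not pass between MIZ and Vehicle (log2 fold changes -0.04 and -0.06). Prpsap2 was lower in Vehicle than in Undifferentiated cells by a log2 fold change of -0.27 (SE 0.0672, edgeR adjusted p = 0.00368).

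**Figure D1:**
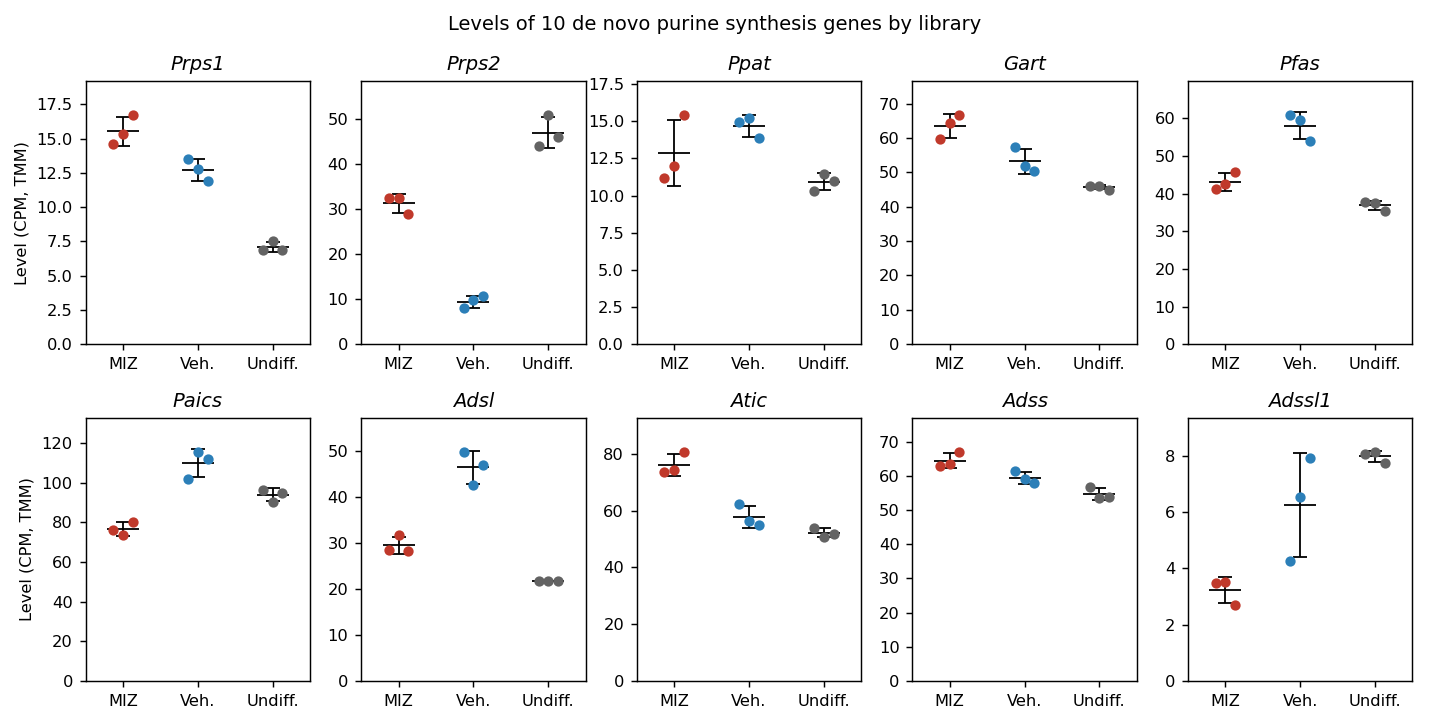
Levels in CPM (TMM scaling, linear axes from 0) of the 10 de novo purine synthesis genes in MIZ, Vehicle and Undifferentiated libraries. Points are libraries, long lines are means and error bars are SD (n = 3). Prps2 averages 31.4 CPM with MIZ, 9.47 CPM with vehicle and 47.0 CPM in undifferentiated cells, while Pfas, Ppat, Paics and Adsl have their highest mean with vehicle.

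Ppat, which encodes the committed and feedback-regulated step, was not called between MIZ and either other group, but was called between Vehicle and Undifferentiated cells. Its level was 11.2, 12.0 and 15.4 CPM in MIZ libraries, 14.9, 15.2 and 13.9 CPM in Vehicle libraries and 10.3, 11.5 and 10.97 CPM in Undifferentiated libraries. MIZ replicate 3 lay above the Vehicle libraries and MIZ replicate 1 within the range of the Undifferentiated ones, so MIZ overlapped both other groups. The difference between MIZ (12.9 ± 2.23 CPM) and Vehicle (14.7 ± 0.724 CPM) was -0.19 on the log2 scale (SE 0.111, edgeR adjusted p = 0.142) and did not pass. Without MIZ replicate 3 it was -0.35 and passed (edgeR adjusted p = 0.004). Vehicle was higher than Undifferentiated (10.9 ± 0.574 CPM) by 0.43 (SE 0.11, edgeR adjusted p = 0.00444). MIZ against Undifferentiated was 0.23 (edgeR adjusted p = 0.0848), and 0.33 without MIZ replicate 1, where it passed (edgeR adjusted p = 0.0257).

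Gart, the trifunctional enzyme that adds glycine and the first formyl group and closes the first ring, was at 59.7, 64.3 and 66.6 CPM in MIZ libraries, 57.3, 51.9 and 50.5 CPM in Vehicle libraries and 46.0, 46.1 and 45.0 CPM in Undifferentiated libraries. The groups stood apart in the order MIZ, Vehicle, Undifferentiated. The log2 fold changes were 0.26 (SE 0.0586, edgeR adjusted p = 0.00231) for MIZ against Vehicle, 0.22 (SE 0.0587, edgeR adjusted p = 0.00547) for Vehicle against Undifferentiated and 0.48 (SE 0.0585) for MIZ against Undifferentiated. Gart shares exonic bases with an antisense gene, and its value for Vehicle against Undifferentiated was 0.04 and no longer called (edgeR adjusted p = 0.531) when libraries were scaled by their total counts alone.

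Pfas, which uses glutamine to make formylglycinamidine ribonucleotide, had the opposite pattern under MIZ. It was at 41.1, 42.5 and 45.6 CPM in MIZ libraries, 60.8, 59.4 and 54.0 CPM in Vehicle libraries and 37.7, 37.4 and 35.4 CPM in Undifferentiated libraries. Vehicle was clear of both other groups, and MIZ lay above Undifferentiated. MIZ (43.1 ± 2.31 CPM) was lower than Vehicle (58.1 ± 3.58 CPM) by a log2 fold change of -0.43 (SE 0.06, edgeR adjusted p = 6.65e-05). Vehicle was higher than Undifferentiated (36.9 ± 1.28 CPM) by 0.66 (SE 0.0599, edgeR adjusted p = 1.56e-06), and MIZ was higher than Undifferentiated by 0.23 (SE 0.0602, edgeR adjusted p = 0.00656).

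Paics, the bifunctional carboxylase and SAICAR synthetase of the middle of the pathway, was at 76.0, 73.6 and 80.3 CPM in MIZ libraries, 102, 115.5 and 112 CPM in Vehicle libraries and 96.6, 90.2 and 94.98 CPM in Undifferentiated libraries. Here MIZ was the lowest group, below Undifferentiated as well as Vehicle, with no overlap. The log2 fold change of MIZ (76.6 ± 3.40 CPM) against Vehicle (109.9 ± 6.91 CPM) was -0.52 (SE 0.0562, edgeR adjusted p = 8.29e-06), and against Undifferentiated (93.9 ± 3.30 CPM) it was -0.29 (SE 0.0561, edgeR adjusted p = 0.000777). Vehicle was higher than Undifferentiated by 0.23 (SE 0.0558, edgeR adjusted p = 0.00323), a difference that shrank to 0.05 and lost its call with total-count scaling (edgeR adjusted p = 0.419). Paics and Ppat start from 1 shared stretch of DNA, and Paics took 85.7% ± 1.64 of the counts of the pair in MIZ, 88.2% ± 0.879 in Vehicle and 89.6% ± 0.812 in Undifferentiated cells. The difference of -2.52 percentage points between MIZ and Vehicle had an exact permutation p of 0.1 (two-sided), the smallest that 3 libraries against 3 allow.

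Adsl acts at 2 places, as the lyase of SAICAR on the way to IMP and of adenylosuccinate on the way to AMP. It was at 28.4, 31.6 and 28.3 CPM in MIZ libraries, 49.7, 42.5 and 46.9 CPM in Vehicle libraries and 21.8, 21.8 and 21.7 CPM in Undifferentiated libraries. No groups overlapped, and the Vehicle libraries were highest. Adsl had the largest rise of the 10 genes between Vehicle (46.4 ± 3.62 CPM) and Undifferentiated (21.8 ± 0.0461 CPM), with a log2 fold change of 1.09 (SE 0.067, edgeR adjusted p = 5.15e-08), or 2.13-fold. MIZ (29.4 ± 1.87 CPM) was lower than Vehicle by -0.65 (SE 0.0666, edgeR adjusted p = 5.12e-06) and higher than Undifferentiated by 0.44 (SE 0.0675, edgeR adjusted p = 0.000174).

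Atic, which adds the last formyl group and closes the ring to IMP, was at 73.7, 74.1 and 80.6 CPM in MIZ libraries, 62.3, 56.3 and 55.0 CPM in Vehicle libraries and 53.9, 50.9 and 51.9 CPM in Undifferentiated libraries. Like Gart, the other enzyme that takes a formyl group from folate, Atic was highest with MIZ, and its groups did not overlap. The same held for Prps1 and Adss, which do not use folate. MIZ (76.1 ± 3.87 CPM) was higher than Vehicle (57.9 ± 3.89 CPM) by a log2 fold change of 0.40 (SE 0.0584, edgeR adjusted p = 1e-04) and higher than Undifferentiated (52.2 ± 1.55 CPM) by 0.54 (SE 0.0582, edgeR adjusted p = 1.01e-05). Vehicle against Undifferentiated was a small difference of 0.15 (SE 0.0585, edgeR adjusted p = 0.0392), which turned to -0.03 with total-count scaling and lost its call without Vehicle replicate 1 (0.10) or without any 1 of the Undifferentiated replicates (0.12 to 0.16).

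The last step to AMP is made by adenylosuccinate synthase. Adss, its widely expressed form, was at 62.9, 63.5 and 67.0 CPM in MIZ libraries, 61.4, 59.0 and 58.0 CPM in Vehicle libraries and 56.6, 53.4 and 53.8 CPM in Undifferentiated libraries. The groups were next to each other without overlap. MIZ (64.5 ± 2.19 CPM) against Vehicle (59.4 ± 1.75 CPM) gave a log2 fold change of 0.12 (SE 0.0464, edgeR adjusted p = 0.0415), just past the threshold, and 12 of 19 alternative settings lost that call, 6 of them by leaving out 1 library, with a value of 0.08 and the highest edgeR adjusted p (0.194) without Vehicle replicate 3. Vehicle against Undifferentiated (54.6 ± 1.75 CPM) was likewise 0.12 (edgeR adjusted p = 0.0325) and turned to -0.06 with total-count scaling, and lost its call without Undifferentiated replicate 2 or 3 or Vehicle replicate 1. MIZ against Undifferentiated, 0.24 (SE 0.0463, edgeR adjusted p = 0.000863), held under all 19.

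Adssl1, the isoform known from skeletal muscle, had few counts. It was at 3.49, 3.50 and 2.69 CPM in MIZ libraries, 4.27, 6.52 and 7.94 CPM in Vehicle libraries and 8.07, 8.13 and 7.75 CPM in Undifferentiated libraries. MIZ lay below both other groups, and the Vehicle libraries were spread widely, replicate 3 reaching the Undifferentiated range and replicate 1, the library with the fewest counts, coming close to MIZ. MIZ (3.23 ± 0.465 CPM) was lower than Vehicle (6.25 ± 1.85 CPM) by a log2 fold change of -0.97 (SE 0.195, edgeR adjusted p = 0.00102), or 1.96-fold, and lower than Undifferentiated (7.98 ± 0.207 CPM) by -1.30 (SE 0.191, edgeR adjusted p = 0.00012). Vehicle against Undifferentiated was -0.33 (SE 0.18, edgeR adjusted p = 0.114) and did not pass, but was -0.52 and passed without Vehicle replicate 3 (edgeR adjusted p = 0.0172). Of 10 skeletal muscle markers the sum was 38.2 to 64.6 CPM in MIZ, 4.31 to 6.05 CPM in Vehicle and 9.17 to 9.78 CPM in Undifferentiated libraries. Of the 5 tested, 3 were higher and 1 lower with MIZ than with vehicle. Most of the sum in MIZ was Acta1, skeletal alpha-actin (46.6 ± 13.6 CPM of 49.3 ± 13.7), while Myod1 was at 0 in MIZ and Vehicle, Myog at 0 in MIZ, and Ckm at 0.0355 ± 0.0166 CPM in MIZ. Mb, myoglobin, ran the other way, at 0.0166 ± 0.0145 CPM in MIZ, 2.47 ± 0.646 CPM in Vehicle and 0.0417 ± 0.0459 CPM in Undifferentiated cells, and Actn3 was not called between MIZ and Vehicle (0.23, edgeR adjusted p = 0.321). That sum was highest in MIZ, where Adssl1 was lowest, and its part in the result was not tested.

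Against Vehicle, 5 of the 10 genes were higher with MIZ (Prps1, Prps2, Gart, Atic and Adss), where 35.9% of all genes tested were, and 4 were lower (Pfas, Paics, Adsl and Adssl1), where 35.1% were. That makes 9 called, against 71% of all genes. Prps2 alone passed a 2-fold change, against 33.1% of all genes. The median absolute log2 fold change was 0.41 over the 10 genes and 0.65 over all genes tested, which were not matched to the 10 by level. Libraries of MIZ and Vehicle did not overlap for 9 of the 10 genes and for 72.8% of all genes (36.8% of all genes without overlap as higher and 36% as lower).

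Between Vehicle and Undifferentiated cells 8 genes were higher, 1 (Prps2) was lower and Adssl1 was not called, where 77.7% of all genes were called, 36.2% as higher and 41.5% as lower. Changes of over 2-fold were those of Prps2 and Adsl, against 41.2% of all genes. Libraries did not overlap for 8 genes as higher and 1 as lower, against 80.7% of all genes (37.3% as higher and 43.4% as lower). The median log2 fold change was 0.22 over the 10 genes and -0.08 over all genes, and the median absolute change 0.38 and 0.80. With libraries scaled by total counts alone, the median of all genes moved to -0.25. There 3 of the 10 were called higher (Prps1, Pfas and Adsl) and 2 lower (Prps2 and Adssl1). Of all 17173 genes 13455 were then called, 5159 of them higher. Ppat, Gart, Paics, Atic and Adss thus lost their call as higher with this scaling. Of the 19 alternative settings, Ppat, Gart and Paics each kept it under 18, and Atic and Adss each under 13.

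Between MIZ and Undifferentiated cells 6 genes were higher (33.7% of all genes), 3 were lower (Prps2, Paics and Adssl1, against 33.3% of all genes) and Ppat was not called, with 67% of all genes called. Prps1 and Adssl1 passed a 2-fold change, against 26.4% of all genes. Libraries did not overlap for the same 9 genes and for 74.4% of all genes (37.1% as higher and 37.3% as lower). There the median absolute change was 0.46 over the 10 genes and 0.50 over all genes. The 3 comparisons share libraries in pairs, so their values for a gene are not independent of each other.

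**Figure D2:**
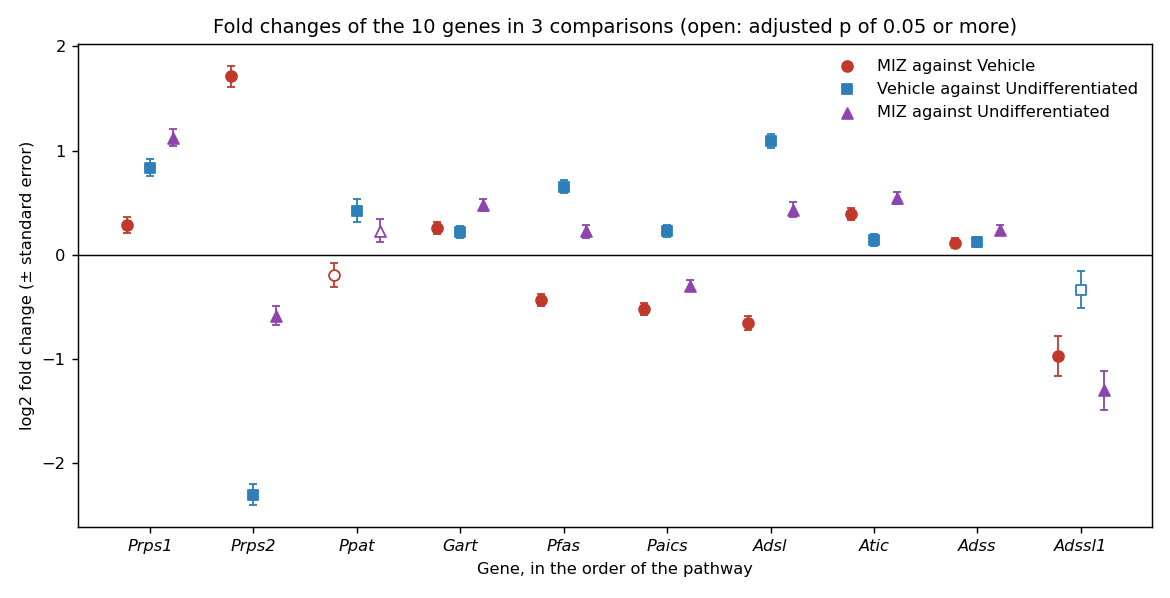
Log2 fold changes of the 10 genes, in the order of the pathway, for MIZ against Vehicle (red circles), Vehicle against Undifferentiated (blue squares) and MIZ against Undifferentiated (purple triangles). Bars are edgeR standard errors, and open symbols have an adjusted p of 0.05 or more. Prps2 lies at 1.71 for MIZ against Vehicle and at -2.30 for Vehicle against Undifferentiated, and beyond 1 on either side lie also Prps1 (1.13) and Adssl1 (-1.30) for MIZ against Undifferentiated and Adsl (1.09) for Vehicle against Undifferentiated.

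Within the PRPP synthetase pair, the share of counts that came from Prps2 does not depend on how libraries are scaled. Prps2 took 69.0%, 68.0% and 63.4% of the pair's counts in MIZ libraries, 37.2%, 43.4% and 47.1% in Vehicle libraries and 86.5%, 87.1% and 87.0% in Undifferentiated libraries. The exact binomial 95% intervals, which cover counting error only, did not meet between groups, and the widest was 33.2% to 41.3% in Vehicle replicate 1. Prps2 thus gave most of the pair's counts in MIZ and Undifferentiated cells and fewer than Prps1 in Vehicle cells, on a gene model of 3873 exonic bases against 1993 for Prps1. The difference was 24.3 percentage points between MIZ (66.8% ± 2.99) and Vehicle (42.6% ± 5.04), -44.3 points between Vehicle and Undifferentiated (86.8% ± 0.347) and -20.0 points between MIZ and Undifferentiated. Each of these had an exact permutation p of 0.1 (two-sided), the smallest possible with 3 libraries against 3. When the counts of Prps1l3 were added to those of Prps1, the share of Prps2 was 46.7% ± 1.81 in MIZ, 22.8% ± 3.34 in Vehicle and 70.6% ± 0.760 in Undifferentiated cells, in the same order.

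Adssl1 contributed a small part of the adenylosuccinate synthase counts. Its share was 5.25%, 5.23% and 3.86% in MIZ libraries, 6.51%, 9.95% and 12.1% in Vehicle libraries and 12.5%, 13.2% and 12.6% in Undifferentiated libraries. Each MIZ library was below each Vehicle and Undifferentiated library, and Vehicle replicate 3 was next to the Undifferentiated libraries. The exact binomial 95% intervals did meet between groups here. Those of MIZ replicates 1 (4.47% to 6.12%) and 2 (4.38% to 6.18%) met that of Vehicle replicate 1 (5.4% to 7.77%). That of Vehicle replicate 3 (10.9% to 13.3%) met those of the Undifferentiated libraries. The difference was -4.72 percentage points between MIZ (4.78% ± 0.796) and Vehicle (9.50% ± 2.80), -3.25 points between Vehicle and Undifferentiated (12.8% ± 0.402) and -7.98 points between MIZ and Undifferentiated, each with an exact permutation p of 0.1 (two-sided).

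**Figure D3:**
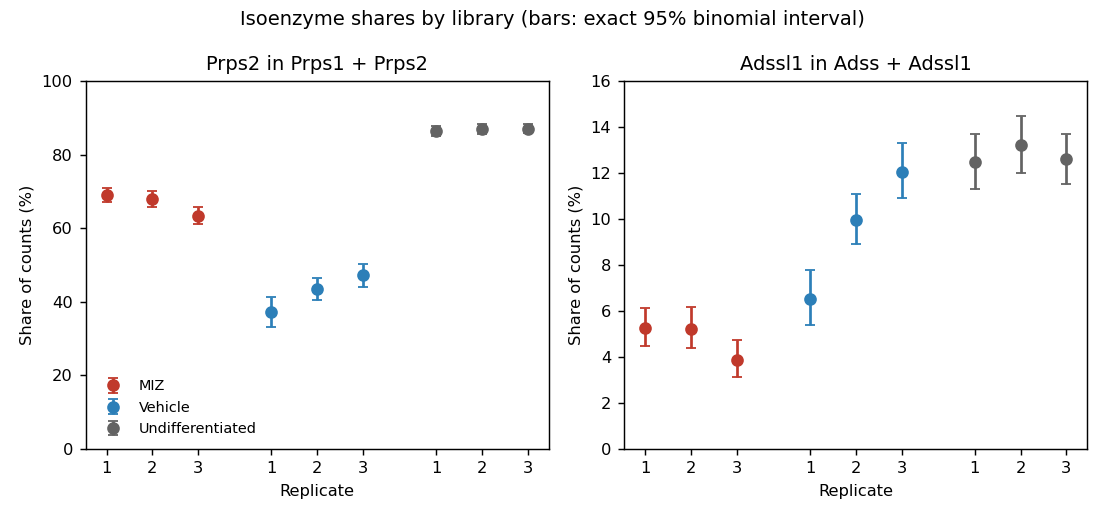
Share of counts, in percent, that came from Prps2 within Prps1 and Prps2 (left, axis 0 to 100) and from Adssl1 within Adss and Adssl1 (right, axis 0 to 16), for each replicate of MIZ, Vehicle and Undifferentiated cells. Points are libraries and bars are exact 95% binomial intervals, which cover counting error only. Prps2 holds 37.2% to 47.1% with vehicle, below the 63.4% to 69.0% with MIZ and the 86.5% to 87.1% of undifferentiated cells.

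The summed level of the 10 genes was 404, 413 and 432 CPM in MIZ libraries, 434, 429 and 421 CPM in Vehicle libraries and 382, 378 and 374.5 CPM in Undifferentiated libraries. MIZ (416 ± 14.5 CPM) and Vehicle (428 ± 6.84 CPM) overlapped, and both were above Undifferentiated (378 ± 3.72 CPM). Without Prps2 and Adssl1, the genes with their highest mean in Undifferentiated cells, the sum was 382 ± 16.9 CPM in MIZ, 412 ± 9.94 CPM in Vehicle and 323 ± 5.89 CPM in Undifferentiated cells. Both genes were left out by their values in these same data, so the lower place of Undifferentiated cells in this sum follows in part from that choice. With total-count scaling the sums of all 10 in Vehicle and Undifferentiated cells were nearly equal, so that difference depends on the scaling. As a share of total counts, the 10 genes took 0.0412%, 0.0429% and 0.0436% in MIZ libraries and 0.0403%, 0.0398% and 0.0393% in Vehicle libraries. MIZ was then above Vehicle without overlap, so the order of these groups depends on the scaling as well.

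Levels per kilobase were taken over merged exons, which join all annotated transcripts of a gene and can be longer than any 1 of them. For Atic they hold 7985 bases where its longest coding transcript has 2845, for Gart 5144 against 3518 and for Paics 3139 against 2482. The order of genes given here thus depends on the gene models. Per kilobase of merged exon, a scale for setting genes beside each other, Paics was the highest in each group, at 24.4 CPM per kilobase in MIZ, 35.0 in Vehicle and 29.9 in Undifferentiated cells. Adss and Gart came next in MIZ (14.2 and 12.3) and in Vehicle (13.1 and 10.3). In Undifferentiated cells Prps2 stood beside Adss (both 12.1), with overlapping libraries, whereas in Vehicle Prps2 was the lowest of the 10 at 2.45, its libraries overlapping those of Adssl1 (2.99). In MIZ Prps2 (8.10) and Prps1 (7.80) overlapped. Ppat, the committed step, was among the 3 lowest in each group, at 2.91 CPM per kilobase in MIZ, 3.32 in Vehicle and 2.47 in Undifferentiated cells. Other neighbours whose libraries overlapped were Pfas and Adsl in MIZ, Adsl, Pfas and Atic as well as Ppat and Adssl1 in Vehicle, and Adsl, Adssl1 and Prps1 in Undifferentiated cells.

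The genes fell into patterns over the 3 groups that cut across the order of the pathway. Pfas, Adsl and Paics were highest with vehicle and called lower with MIZ, while Ppat had its highest mean with vehicle but was not called lower with MIZ. Prps1, Gart, Atic and Adss were highest with MIZ, though the call of Adss against Vehicle held under only 7 of 19 settings. Prps2 and Adssl1 had their highest means in Undifferentiated cells, where Adssl1 overlapped Vehicle and was not called against it. Pearson's r of log2 CPM is given as a description over the 9 libraries, which form 3 groups and are therefore not 9 independent points. It was 0.97 between Gart and Atic and also between Gart and Adss. Between Pfas and Adsl it was 0.96, and it was -0.98 between Prps2 and Pfas and between Atic and Adssl1. Among 11773 genes with at least 5 CPM in a group, those most like Ppat were Zfp280c (r = 0.95), 5430416N02Rik (0.95), Thumpd1 (0.95), Aldh1l2 (0.93), which encodes a mitochondrial formyl-tetrahydrofolate dehydrogenase, and Pck2 (0.93), which encodes mitochondrial phosphoenolpyruvate carboxykinase. Of the other enzymes of the pathway Pfas ranked highest, at place 110 (r = 0.87).

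At the branch after IMP, the 2 isoforms of the drug's own target ran in opposite directions. Impdh2 was at 141, 136 and 156 CPM in MIZ libraries, 43.0, 45.1 and 45.0 CPM in Vehicle libraries and 56.2, 50.4 and 52.8 CPM in Undifferentiated libraries. Impdh1 was at 36.03, 34.1 and 36.9 CPM in MIZ libraries, 124, 179.9 and 190.0 CPM in Vehicle libraries and 29.8, 28.1 and 28.0 CPM in Undifferentiated libraries. Impdh2 was high in MIZ libraries alone and Impdh1 in Vehicle libraries alone. Per kilobase of merged exon, Impdh2 was the higher of the pair in MIZ (47.0 against 10.8 CPM per kilobase) and Undifferentiated cells (17.3 against 8.69), and Impdh1 in Vehicle cells (50.01 against 14.4). For MIZ against Vehicle the log2 fold change was 1.70 (SE 0.0612, edgeR adjusted p = 9.54e-10) for Impdh2 and -2.21 (SE 0.132, edgeR adjusted p = 5.74e-08) for Impdh1. Gmps, the GMP synthetase that follows them, and Guk1, guanylate kinase, were lower too (-0.52 and -0.41). Thus 1 of the 4 genes of the guanine arm rose and 3 fell, where 35.9% of all genes were called higher and 35.1% lower. Of 3 AMP deaminases, which return AMP to IMP, Ampd2 alone was called, higher with MIZ by 0.82 (SE 0.0575, edgeR adjusted p = 2.17e-07).

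Salvage, which remakes nucleotides from free bases and nucleosides, was mixed. Its list also holds Ada and Pnp, which act on nucleosides without making nucleotides. Shares called among all genes, against which this and the following lists are read, were 35.9% higher and 35.1% lower for MIZ against Vehicle. Of 6 genes 3 were higher with MIZ than with vehicle (Aprt, Adk and Ada) and 2 were lower (Hprt and Dck, 1 with total-count scaling), with a median log2 fold change of 0.33 where that of all genes was 0.02. Adk, adenosine kinase, was at 54.1 ± 2.74 CPM in MIZ and 31.0 ± 1.40 CPM in Vehicle cells, a log2 fold change of 0.80 (SE 0.0548, edgeR adjusted p = 1.83e-07). Dck, deoxycytidine kinase, was at 6.25 ± 0.611 CPM in MIZ and 8.37 ± 0.431 CPM in Vehicle cells (-0.42, SE 0.0897, edgeR adjusted p = 0.00155). Between Vehicle and Undifferentiated cells 1 of the 6, Hprt, was higher (36.2% of all genes) and 5 were lower (41.5% of all genes).

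The supply of ribose 5-phosphate, from which PRPP is made, had larger changes. Of 8 genes of the pentose phosphate pathway, MIZ cells had 7 lower than Vehicle cells and 1 higher, with a median log2 fold change of -1.31, against -0.04 for the 10 purine enzymes and 0.02 for all genes. G6pdx, glucose-6-phosphate dehydrogenase, was at 70.6 ± 2.01 CPM in MIZ and 306 ± 6.28 CPM in Vehicle cells (-2.12, SE 0.0414, edgeR adjusted p = 2.49e-11; 13.6% of its exonic bases are shared with Ikbkg), and H6pd, its counterpart in the endoplasmic reticulum, was the one that rose (0.36, SE 0.0739, edgeR adjusted p = 0.00116). All 8 were higher in Vehicle than in Undifferentiated cells, where 36.2% of all genes were, with a median of 1.29. Of 14 genes for serine, glycine and formyl-folate 8 were lower with MIZ and 2 higher (median -0.44, and between 1 and 5 higher under other settings), with Aldh1l1, cytosolic formyl-tetrahydrofolate dehydrogenase, at 6.80 ± 0.553 CPM in MIZ and 93.7 ± 19.1 CPM in Vehicle cells (-3.78, SE 0.144, edgeR adjusted p = 1.49e-09). Aldh1l1 shares 11% of its exonic bases with an antisense gene. Mthfd2l, a mitochondrial enzyme of the same folate branch, was higher by 0.35 (SE 0.0973, edgeR adjusted p = 0.00794). Between Vehicle and Undifferentiated cells 12 of the 14 were higher (36.2% of all genes) and 2 lower (41.5%), with a median of 1.79.

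For glutamine and aspartate, MIZ cells had 5 of 9 genes lower than Vehicle cells and 3 higher, where 71% of all genes were called (35.1% lower and 35.9% higher). The median was -0.23, against 0.02 for all genes. Slc1a5, a glutamine transporter, was at 195 ± 8.24 CPM in MIZ and 1201 ± 108 CPM in Vehicle cells (-2.62, SE 0.0738, edgeR adjusted p = 1.68e-10), while Slc25a12, a mitochondrial aspartate carrier, was at 28.8 ± 1.12 CPM in MIZ and 11.4 ± 0.839 CPM in Vehicle cells (1.34, SE 0.0637, edgeR adjusted p = 8.88e-09). Of 5 genes of pyrimidine synthesis, the sister pathway that also draws on PRPP, 3 were higher with MIZ and 1 was lower, with 35.9% and 35.1% of all genes so called and a median of 0.41. Ctps, CTP synthase, was at 195 ± 4.55 CPM in MIZ and 48.2 ± 5.23 CPM in Vehicle cells (2.02, SE 0.071, edgeR adjusted p = 7.86e-10), against 1.71 for Prps2, the largest of the 10 de novo purine genes in that comparison. Dhodh, dihydroorotate dehydrogenase of the mitochondrion, was lower by -0.82 (SE 0.0826, edgeR adjusted p = 4.83e-06).

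**Figure D4:**
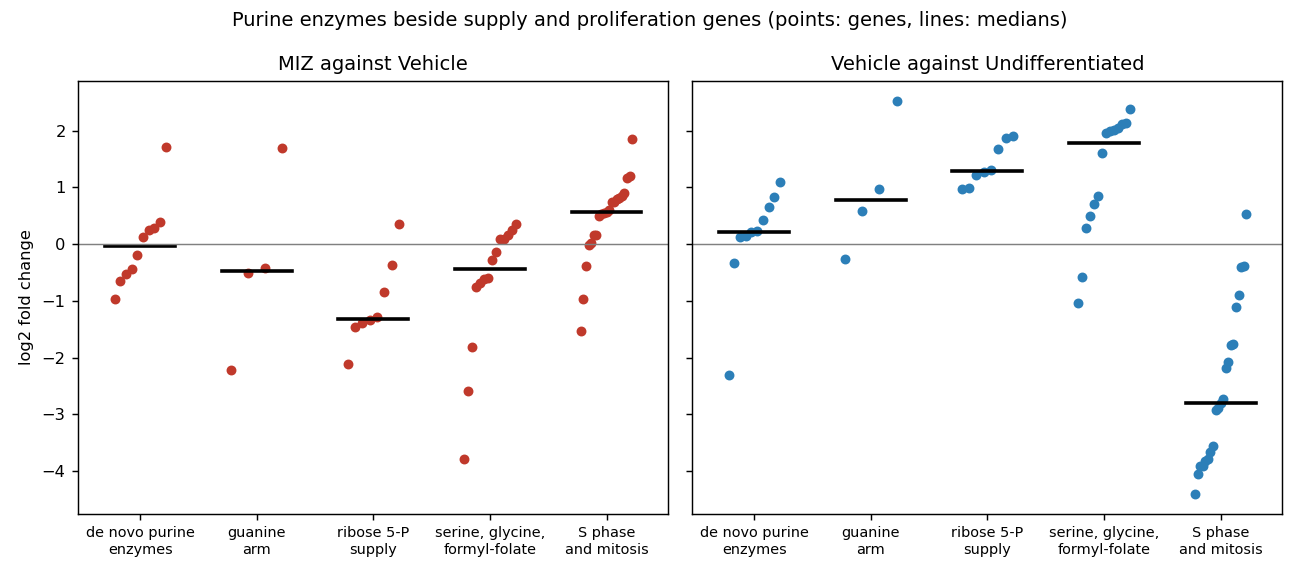
Log2 fold changes of MIZ against Vehicle (left) and of Vehicle against Undifferentiated (right) for the 10 de novo purine enzymes, 4 genes of the guanine arm, 8 of ribose 5-phosphate supply, 14 of serine, glycine and formyl-folate supply and 21 of S phase and mitosis. Points are genes and lines are medians. The purine enzymes center near 0 (medians -0.04 and 0.22), where ribose 5-phosphate supply centers at -1.31 on the left and 1.29 on the right.

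MYC and proliferation, with which purine synthesis is commonly tied, were set beside the enzymes. Myc itself was at 57.0 ± 3.53 CPM in MIZ, 80.0 ± 4.95 CPM in Vehicle and 18.8 ± 1.97 CPM in Undifferentiated cells, the same order as Pfas and Adsl, with a log2 fold change of -0.49 (SE 0.0782, edgeR adjusted p = 0.000194) for MIZ against Vehicle. Of 13 genes of the MYC network 8 were lower with MIZ (35.1% of all genes) and 2 higher (35.9%), with a median of -0.31 against 0.02 over all genes. Among them were Mlxipl, the carbohydrate-responsive factor ChREBP (-3.81, SE 0.111, edgeR adjusted p = 2.03e-10), and Mycl, which was at 53.9 ± 14.6 CPM in MIZ and 1.57 ± 0.073 CPM in Vehicle cells (5.11, SE 0.208, edgeR adjusted p = 2.51e-09). The 8 lower genes were Myc, Mlx, Mlxip, Mlxipl, Mxd1, Mxd4, Mxi1 and Mga, and the 2 higher were Mycl and Max, the partner of MYC. Since Mxd1, Mxd4, Mxi1 and Mga oppose MYC, the count and the median give no direction of MYC activity. The sum over 21 genes of S phase and mitosis was 189 to 252 CPM in MIZ, 151 to 182 CPM in Vehicle and 874 to 909.5 CPM in Undifferentiated libraries. Of the 21, 20 were lower in Vehicle than in Undifferentiated cells (median -2.79), where 41.5% of all genes were. Of the 10 purine enzymes 8 were higher there, where 36.2% of all genes were, and Prps2 was lower. With total-count scaling 3 of the 10 were higher, where 5159 of 17173 genes were. With MIZ 11 of the 21 were higher than with vehicle (35.9% of all genes) and 3 were lower (35.1%), among them Rrm2, a subunit of ribonucleotide reductase, at 13.1 ± 1.41 CPM in MIZ and 3.51 ± 1.31 CPM in Vehicle cells (1.86, SE 0.192, edgeR adjusted p = 5.81e-06). Ccne1, cyclin E1, was lower by -1.53 (SE 0.159, edgeR adjusted p = 6.21e-06). Whether these differences bear on those of the purine enzymes was not tested.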

How the data were processed

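RNA of 9 cultures, 3 for each of MIZ, Vehicle and Undifferentiated, was extracted with TRIzol, depleted of ribosomal RNA and sequenced in pairs of reads. Per the labels and the study's methods, the authors trimmed reads with Trim Galore 0.6.7, aligned them with STAR to the mouse genome GRCm38 (mm10) and deposited raw read counts per gene, with HTSeq also named. The annotation release and the strand setting are not given in the sources used here, and a wrong strand setting would mix overlapping genes. Groups and replicate numbers came from the labels.

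A gene was tested where 3 or more libraries had 5 or more counts (17173 tested, 15112 left out, 99.987% of counts kept) in R 4.3.3 with edgeR 4.0.16, by quasi-likelihood fits over all 9 libraries after TMM scaling. Alternatives used other scalings and filters, DESeq2 1.42.0, 6 libraries, a replicate block, each library left out, no mitochondrially encoded genes and Prps1l3 added to Prps1. The test was also run on simulated data. Copies were searched with blastn 2.17.0, and figures were drawn with matplotlib 3.10.9. Shares have exact 95% binomial intervals. Correlations were taken on log2 CPM (prior count 2). The 10 genes were all named. From each other list of genes the largest rise and the largest fall for MIZ against Vehicle were named, among called genes with at least 5 CPM in 1 of these groups. Others (the called genes of the MYC network, Gmps, Guk1, the salvage genes and those of the marker lists at or near 0) were added after their values were seen. The members and lists were chosen with earlier results of these data known.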

Additional observations from a re-analysis of the deposited data

How the results depend on the processing

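Of the log2 fold changes of the 10 genes under 19 alternatives, 539 kept direction and call, 25 lost the call, 4 gained it and 2 turned. Total-count scaling called 5 of the genes for Vehicle against Undifferentiated, 3 higher and 2 lower. Of all 17173 genes it called 13455 there, 5159 of them higher. It turned Atic log2 fold change, Vehicle against Undifferentiated, to -0.031 and Adss log2 fold change, Vehicle against Undifferentiated, to -0.056. It shifts the median of all genes to -0.25 there and to 0.16 for MIZ against Vehicle. Leaving out 1 library gave 8 to 9 called for MIZ against Vehicle, 7 to 10 for Vehicle against Undifferentiated (1 to 2 lower, 2 without Vehicle replicate 3) and 9 to 10 for MIZ against Undifferentiated. Per kilobase, the Prps2 share of Prps1 and Prps2 counts, Vehicle against Undifferentiated, differed by -49.6 points and the Prps2 share of Prps1 and Prps2 counts, MIZ against Undifferentiated, by -26.3, and with Prps1l3 added, chosen after seeing the data, by -47.9 and -23.9. Likewise per kilobase, the Adssl1 share of Adss and Adssl1 counts, MIZ against Vehicle, differed by -8.64 points, the Adssl1 share of Adss and Adssl1 counts, Vehicle against Undifferentiated, by -5.62 and the Adssl1 share of Adss and Adssl1 counts, MIZ against Undifferentiated, by -14.3, and without 1 library by -6.22 to -3.45, -4.53 to -1.76 and -8.21 to -7.52. The summed CPM of the members, Vehicle, was 397.9 with total counts, 414.5 with upper-quartile factors and 438.9 without mitochondrially encoded genes. The summed CPM of the members, Undifferentiated, was 397.6 with total counts, 371.8 with RLE size factors, and 385.6 both with upper-quartile factors and without mitochondrially encoded genes. The causes were not tested. Same-numbered libraries had deviation correlations of -0.134 to 0.156, so the numbers were not read as pairs, and not every library correlated best with its own number. With the replicate block the Adss difference between MIZ and Vehicle lost its call (0.12, edgeR adjusted p = 0.0599), and the other calls of the 10 genes were kept. Adssl1 had 374 counts in all MIZ libraries, which limits its precision.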
